A study of Mus musculus with 4 samples.

Results

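The genes described here make cholesterol and fatty acids. They are 30 genes chosen by symbol, with earlier results of these data known. These are 18 sterol pathway enzymes, 5 genes that control the SREBP transcription factors, 1 sterol carrier and 6 enzymes of fatty acid synthesis. All 30 had at least 1 probe on the array, 43 probes of 55681 in all, against 21154 genes that could be named through RefSeq accessions. The list does not hold every enzyme of these pathways. A gene was tested if both embryonic or both adult arrays showed its probe well above background, which held for 29 members, 28 of them on all 4 arrays. The 1 member left untested was Srebf1.

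Thymospheres are floating cell aggregates grown from digested thymus in dishes to which cells do not attach. Embryonic spheres came from thymus of embryonic day 14.5 and adult spheres from thymus of mice aged 5 to 6 weeks, all of strain C57Bl6/N, and no gene was modified in either group. All cultures had the same medium, with B27 supplement, hydrocortisone, insulin, EGF and bFGF. Medium was added to all cultures on day 5, and they were collected on day 7. Each group had 2 samples, each on its own 1-colour array, 4 arrays on 1 slide in 1 scan. Insulin and hydrocortisone, which act on lipid synthesis in many cells, were therefore present in embryonic and adult cultures alike.

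Cells build cholesterol from acetyl-CoA through mevalonate, squalene and lanosterol. The proteins SREBP1 and SREBP2 sit in the endoplasmic reticulum with their escort SCAP, and are held there by INSIG proteins when sterols are plentiful. When sterols fall, they move to the Golgi, are cut free and switch on sterol and fatty acid genes in the nucleus. SREBP2 acts mainly on sterol genes and SREBP1 mainly on fatty acid genes.

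Promoter windows of 5 members are shown because these genes carry the main contrasts: Hmgcs1, Idi1 and Elovl6 rose most among the members with a window, Fasn fell, and Insig1 stood apart from Insig2. They are RefSeq sequences of build GRCm38.p6, 250 bases before to 50 after the start of the gene, 5′ to 3′ on the gene's strand. Capitals mark the sterol regulatory element TCACNCCAC and the NF-Y box CCAAT, each on either strand, so that the NF-Y box of the other strand reads ATTGG. The windows are chr13:119690101-119690400 (plus strand) for Hmgcs1, chr13:8885356-8885655 (plus) for Idi1, chr3:129532136-129532435 (plus) for Elovl6, chr5:28071162-28071461 (plus) for Insig1 and chr11:120824498-120824797 (minus) for Fasn.
Hmgcs1: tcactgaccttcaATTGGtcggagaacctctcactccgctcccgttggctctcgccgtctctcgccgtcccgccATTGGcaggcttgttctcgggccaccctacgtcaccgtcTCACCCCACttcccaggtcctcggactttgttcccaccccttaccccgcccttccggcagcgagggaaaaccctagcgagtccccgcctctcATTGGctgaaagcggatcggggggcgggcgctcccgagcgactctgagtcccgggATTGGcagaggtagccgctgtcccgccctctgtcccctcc
Idi1: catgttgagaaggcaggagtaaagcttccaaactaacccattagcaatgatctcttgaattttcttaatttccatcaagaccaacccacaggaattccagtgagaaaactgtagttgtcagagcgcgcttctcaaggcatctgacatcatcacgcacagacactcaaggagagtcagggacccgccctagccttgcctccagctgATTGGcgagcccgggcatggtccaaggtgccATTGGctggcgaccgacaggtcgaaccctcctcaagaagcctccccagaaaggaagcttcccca
Elovl6: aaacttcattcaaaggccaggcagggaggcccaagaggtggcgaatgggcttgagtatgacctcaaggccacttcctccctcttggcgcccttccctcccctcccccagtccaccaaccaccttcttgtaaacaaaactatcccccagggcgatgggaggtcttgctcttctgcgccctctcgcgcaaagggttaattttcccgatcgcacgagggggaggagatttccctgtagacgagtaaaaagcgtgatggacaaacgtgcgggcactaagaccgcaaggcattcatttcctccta
Insig1: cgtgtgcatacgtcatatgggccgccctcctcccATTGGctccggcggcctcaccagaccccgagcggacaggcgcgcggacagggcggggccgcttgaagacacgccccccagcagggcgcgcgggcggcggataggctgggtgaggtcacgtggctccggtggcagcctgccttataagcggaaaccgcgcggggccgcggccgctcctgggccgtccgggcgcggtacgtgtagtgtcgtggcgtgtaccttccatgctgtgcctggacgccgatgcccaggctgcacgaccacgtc
Fasn: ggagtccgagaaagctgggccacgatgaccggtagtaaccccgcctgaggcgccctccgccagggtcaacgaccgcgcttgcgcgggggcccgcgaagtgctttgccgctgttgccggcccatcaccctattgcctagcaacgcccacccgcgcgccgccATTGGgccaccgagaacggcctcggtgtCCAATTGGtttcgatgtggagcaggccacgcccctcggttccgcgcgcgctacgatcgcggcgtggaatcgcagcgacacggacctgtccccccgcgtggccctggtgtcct
Hmgcs1 held the sterol element once and 4 NF-Y boxes, Fasn held 3 NF-Y boxes of which 2 overlap, Idi1 held 2 and Insig1 held 1. The Elovl6 window held neither motif.

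Of the 30 members, 24 had a window in the promoter table, some of them several. The NF-Y box was present for 20 of these 24 genes (83.3%), against 41.1% of 27025 genes with a window. The Sp1 box GGGCGG, also searched on both strands, was present for 20 (83.3%) as well, against 38.2%. Among genes tested on the arrays the comparison narrows for Sp1. There the NF-Y box was found for 19 of 23 members (82.6%) and 42.0% of 10865 genes, and the Sp1 box for 19 of 23 members and 62.3% of genes. The sterol element was found for Hmgcs1 alone, 4.17% of the 24 genes against 1.44% of all genes with a window. A match is a description of these letters in this window and was not tied to the array values.

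The lipid synthesis genes were mostly higher in embryonic spheres, with sterol enzymes in front and 2 fatty acid genes going the other way. Of 29 tested members, 17 rose (58.6%) and 2 fell in limma at an adjusted p under 0.05, where 34.9% of all 13660 genes tested rose and 17.4% fell. The median log2 fold change, embryonic minus adult, was 1.15 over the members and 0.75 over all genes tested. Among genes well above background on all 4 arrays these medians were 1.17 for 28 members and 0.93 for 9622 genes, and 42.0% of such genes rose. Among genes with such signal 2.41% fell. The share of members that rose thus lay above both backgrounds, and the shift of all genes in the same direction was nearly as large as the members' own. With either adult array removed limma called no gene of the whole table. Unadjusted p-values under 0.05 were then found for 5580 genes and 14 members without adult array 1, and for 6017 genes and 19 members without adult array 2. Without embryonic array 1, 14 members rose and 1 fell, where 23.6% of all genes rose and 16.2% fell. Without embryonic array 2, 12 rose and 2 fell, where 24.3% and 16.2% of genes did.

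**Figure D1:**
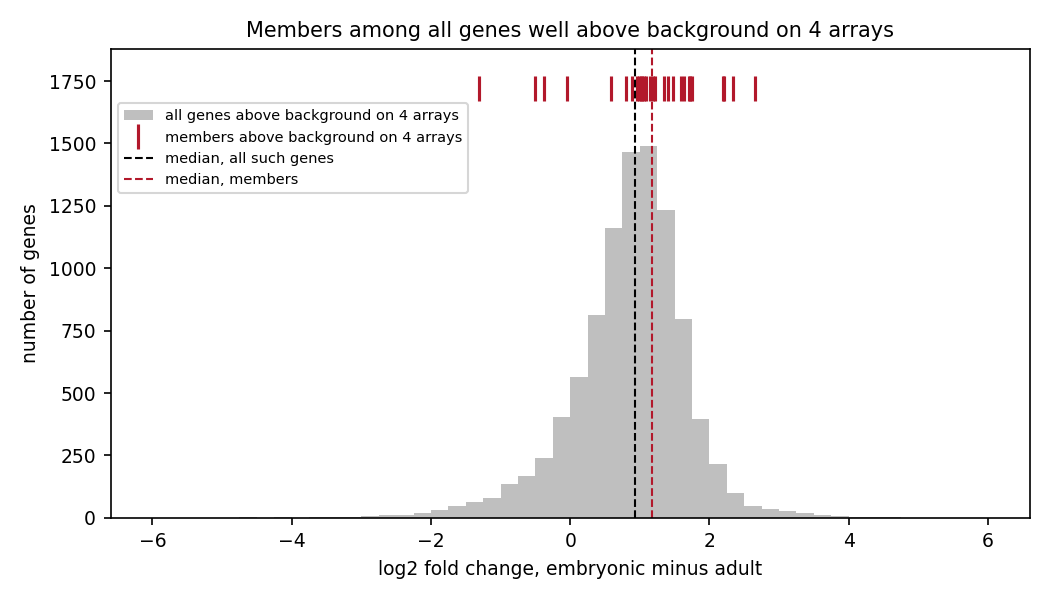
Histogram of the log2 fold change (x axis, embryonic minus adult) of 9622 genes with signal on every array, with the number of genes on the y axis, and red ticks for 28 members. The members' median of 1.17 (red dashed line) lies slightly above the median of 0.93 of all such genes (black dashed line).

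The scaling between arrays was 1 of the settings that changed how many members were called. When the median of the tested genes was set to 0 on every array, 4 members rose and 2 fell, where 7.63% of all genes rose and 20.3% fell. Of genes with signal on all 4 arrays 7.69% rose and 460 of 9622 fell under that centring. The 4 were Sqle, Elovl6, Idi1 and Hmgcs1, and the 2 were Scd1 and Fasn. The 17 members called higher had a positive log2 fold change under all 17 alternatives of processing, and both members called lower had a negative one wherever they were tested. Other settings moved the backgrounds together with the members. Centring on the median of all probes gave 25 members higher and none lower in limma (none lower at an unadjusted p under 0.05 either), where 72.0% of all genes were higher and 12.4% lower. Quantile normalization gave 11 members higher and 2 lower, where 21.1% of all genes were higher and 14.4% lower. The 75th percentile over probes bright on all 4 arrays gave 2 higher and 2 lower, where 3.47% and 22.6% of genes were. With no filter on dim probes 4 were higher and none lower in limma (2 lower at an unadjusted p under 0.05), where 4.24% and 8.46% of genes were. A fit over genes with signal on all 4 arrays alone called 22 members higher and 1 lower, where 51.9% of genes were higher and 3.28% lower. With the replicate number as a block 15 were higher and 2 lower, where 31.8% and 17.5% of genes were.

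Signals below are log2 processed signal minus the 75th percentile of the array, so that 0 is the level of that percentile, and they are given in the order of array 1 and array 2 of each group. Levels of different probes are not compared with each other. The number of arrays limits the precision. Nothing in the labels says whether the samples of a group came from separate cultures or animals, and the spread behind each p-value may be technical. In whole-sphere RNA, more cells of a type and more RNA per cell cannot be told apart. Each array has its own place on the slide, so effects of place and of group cannot be told apart.

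**Figure D2:**
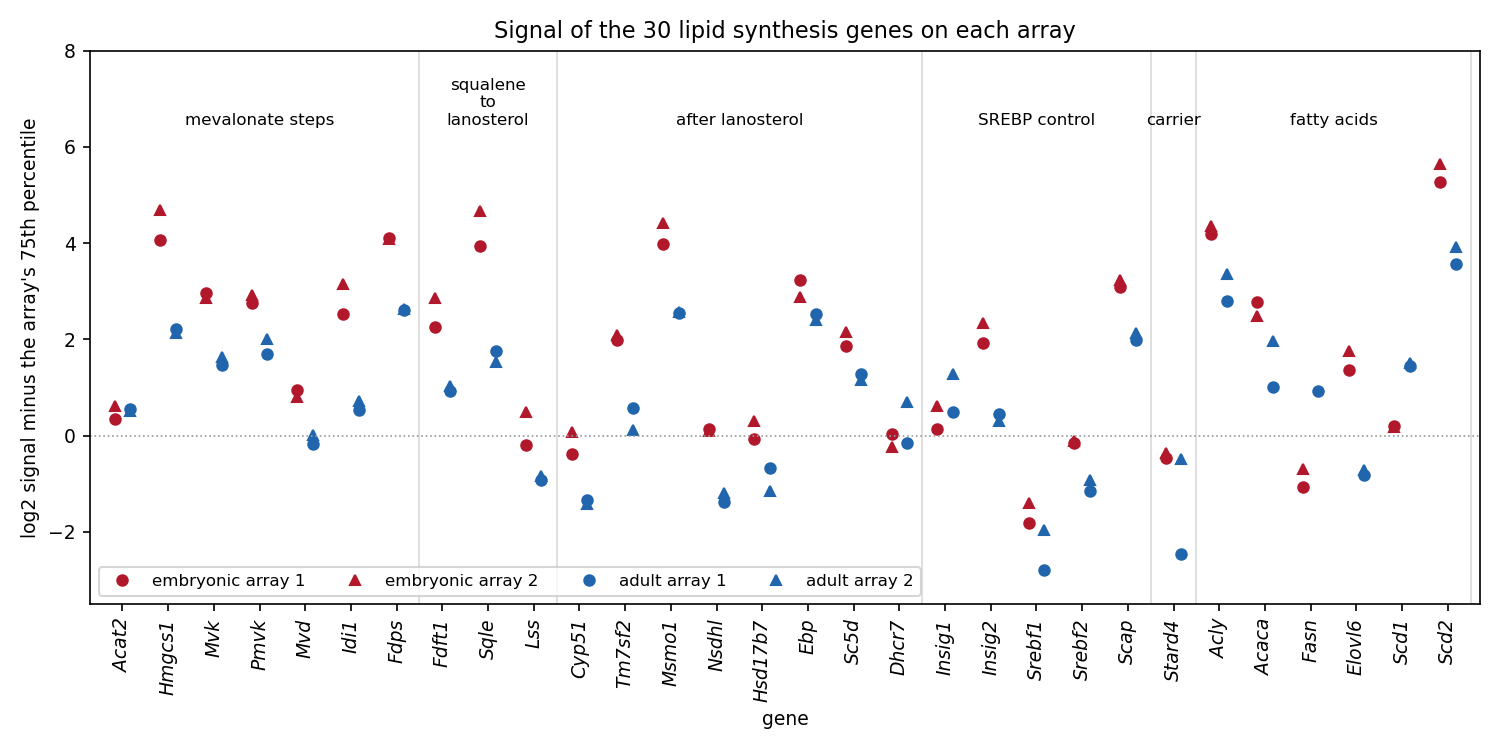
Normalised log2 signal (y axis) of the 30 genes on each array, grouped by role along the x axis, red for embryonic and blue for adult arrays, circles for array 1 and triangles for array 2. For most sterol enzymes both red points lie above both blue ones, while Scd1 and Fasn show the reverse. Fasn has 1 adult point because the spot on adult array 2 was marked as an outlier, and Srebf1 is shown though it was not tested.

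The early steps of the pathway, from acetyl-CoA to farnesyl diphosphate, held several of the clearest differences. Hmgcs1, the cytosolic HMG-CoA synthase, had 4.06 and 4.69 in embryonic spheres, against 2.22 and 2.14 in adult spheres. Idi1, which isomerises the isoprenoid unit isopentenyl diphosphate, had 2.53 and 3.15 in embryonic spheres, against 0.53 and 0.73 in adult spheres. The adult arrays lay close together for both genes and the embryonic arrays lay further apart, and the groups did not overlap. The log2 fold change was 2.20 for Hmgcs1 (SE 0.34, adjusted p = 0.0119) and 2.21 for Idi1 (SE 0.35, adjusted p = 0.0120), about 4.59-fold and 4.62-fold.

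Fdps, the farnesyl diphosphate synthase, had 4.10 and 4.09 in embryonic spheres, against 2.60 and 2.63 in adult spheres. Replicate arrays agreed closely here, and Fdps rose by 1.48 (SE 0.28, adjusted p = 0.0155). Mevalonate kinase, encoded by Mvk, had 2.96 and 2.85 in embryonic spheres, against 1.47 and 1.64 in adult spheres, and rose by 1.35 (SE 0.29, adjusted p = 0.0189). The next enzymes, Pmvk and Mvd, which phosphorylate and then decarboxylate the intermediate, rose by 0.99 (SE 0.30, adjusted p = 0.0425) and 0.96 (SE 0.29, adjusted p = 0.0428), both close to the median of all genes. Acat2, a cytosolic thiolase at the entry to the pathway, had 0.34 and 0.62 in embryonic spheres, against 0.56 and 0.51 in adult spheres. Its groups overlapped and it did not pass the test (log2 fold change -0.053, SE 0.29, adjusted p = 0.884), and its sign turned when arrays were centred on all probes. In all, 6 of the 7 early enzymes rose and none fell. All 7 had signal on every array, and of all genes with such signal 42.0% rose and 2.41% fell. After centring on the tested genes, Hmgcs1 (adjusted p = 0.0262) and Idi1 (adjusted p = 0.0241) were still called.

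The enzymes that turn farnesyl diphosphate into lanosterol included the member with the greatest rise. Sqle, the squalene epoxidase and a rate-limiting step of sterol synthesis, had 3.94 and 4.67 in embryonic spheres, against 1.76 and 1.53 in adult spheres. The lowest embryonic value was far above the highest adult one. Sqle rose by 2.66 (SE 0.37, adjusted p = 0.0107), or 6.32-fold, and was called in 15 of 17 alternatives, all but those without one of the adult arrays. Fdft1, the squalene synthase, had 2.26 and 2.86 in embryonic spheres, against 0.93 and 1.03 in adult spheres, and rose by 1.59 (SE 0.34, adjusted p = 0.0189). Lss, which closes the ring to lanosterol, had -0.20 and 0.50 in embryonic spheres, against -0.92 and -0.84 in adult spheres. The Lss groups did not overlap, but the spread of the embryonic arrays left it outside the threshold (1.03, SE 0.35, adjusted p = 0.0596).

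Of the 8 enzymes that convert lanosterol towards cholesterol, 4 rose and none fell. The share of 50% that rose is near the 42.0% of genes with signal on all 4 arrays, and 2.41% of such genes fell. Tm7sf2, a sterol C14 reductase, had 1.99 and 2.10 in embryonic spheres, against 0.57 and 0.11 in adult spheres, and rose by 1.70 (SE 0.32, adjusted p = 0.0149). Msmo1, the C4 methyl oxidase, had 3.98 and 4.42 in embryonic spheres, against 2.54 and 2.57 in adult spheres, and rose by 1.64 (SE 0.31, adjusted p = 0.0156). Nsdhl, the X-linked enzyme that follows it in C4 demethylation, had 0.13 and 0.09 in embryonic spheres, against -1.39 and -1.19 in adult spheres, and rose by 1.40 (SE 0.29, adjusted p = 0.0177). In these genes both embryonic arrays stood more than a log2 unit above both adult ones. Cyp51, the lanosterol demethylase, rose by 1.22 (SE 0.31, adjusted p = 0.0288), with -0.39 and 0.07 in embryonic spheres, against -1.33 and -1.43 in adult spheres.

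The other 4 late enzymes did not pass the test. Hsd17b7, the keto reductase of C4 demethylation, differed by 1.01 in log2 (SE 0.34, adjusted p = 0.0544) on the probe used, and its other tested probe was also higher in embryonic spheres but had signal on 1 adult array alone. Sc5d, the C5 desaturase, had 0.79 (SE 0.30, adjusted p = 0.0728) and the isomerase gene Ebp, also X-linked, 0.58 (SE 0.30, adjusted p = 0.152). The groups did not overlap for these genes, but the sign of Ebp turned under 4 alternatives and that of Sc5d under 1. Dhcr7, which catalyses the last step of one branch, had 0.03 and -0.23 in embryonic spheres, against -0.16 and 0.69 in adult spheres. Its groups overlapped (log2 fold change -0.37, SE 0.39, adjusted p = 0.443), and its sign turned when arrays were centred on all probes and without adult array 2. None of the 8 late enzymes was called after centring on the tested genes.

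Over all 18 sterol enzymes, 12 rose and none fell (66.7% higher), with a median log2 fold change of 1.28. Of all genes with signal on every array 42.0% rose and 2.41% fell, with a median of 0.93, so none lower is near that share. After centring on the tested genes 3 of the 18 were called higher and none lower, where 7.69% of such genes were higher. The groups did not overlap, with embryonic arrays higher, for 16 of the 18 enzymes. Of the 13368 genes with a value on every array 61.2% did the same. All 18 were well above background on every array, and 74.8% of the 9622 such genes did so. Markers of epithelium and of dividing cells were measured beside them. Of 9 tested epithelial markers, all with signal on every array, 5 rose (55.6%, against 42.0% of genes with such signal) and 1 fell. After centring on the tested genes 3 of these markers were called higher and 1 lower, where 7.63% and 20.3% of all genes were. Of genes with signal on every array 7.69% were higher and 460 of 9622 lower after it. The summed log2 level of the epithelial markers was 8.93 and 9.57 in embryonic spheres, against 7.78 and 7.32 in adult spheres. Of 8 tested cell cycle markers, 3 rose (37.5%, near the 34.9% of all genes) and none fell, and none was called after centring. Of these 3, Top2a had signal on 1 adult array alone. The summed log2 level of the cell cycle markers was 5.36 and 4.69 in embryonic spheres, against 3.86 and 3.90 in adult spheres. Their part in the sterol results was not tested.

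The embryonic arrays differed from each other by more than 0.5 in 5 sterol enzymes. Array 2 minus array 1 was 0.73 for Sqle, 0.69 for Lss, 0.63 for Hmgcs1, 0.62 for Idi1 and 0.60 for Fdft1. The same difference between the adult arrays was -0.23, 0.081, -0.075, 0.19 and 0.092 in that order. Elovl6, the member with the greatest rise after Sqle, had a gap of 0.38 between the embryonic arrays. Embryonic array 2 stood more than 0.5 above array 1 for 5 of 18 sterol enzymes (27.8%) and 24.4% of all genes tested. These shares were near each other, and gaps of that size in the other direction are not counted in them. With its sign kept, the median of array 2 minus array 1 was 0.29 over the sterol enzymes and 0.082 over all genes. With the sign dropped, the median gap was 0.33 over the sterol enzymes and 0.41 over all genes.

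**Figure D3:**
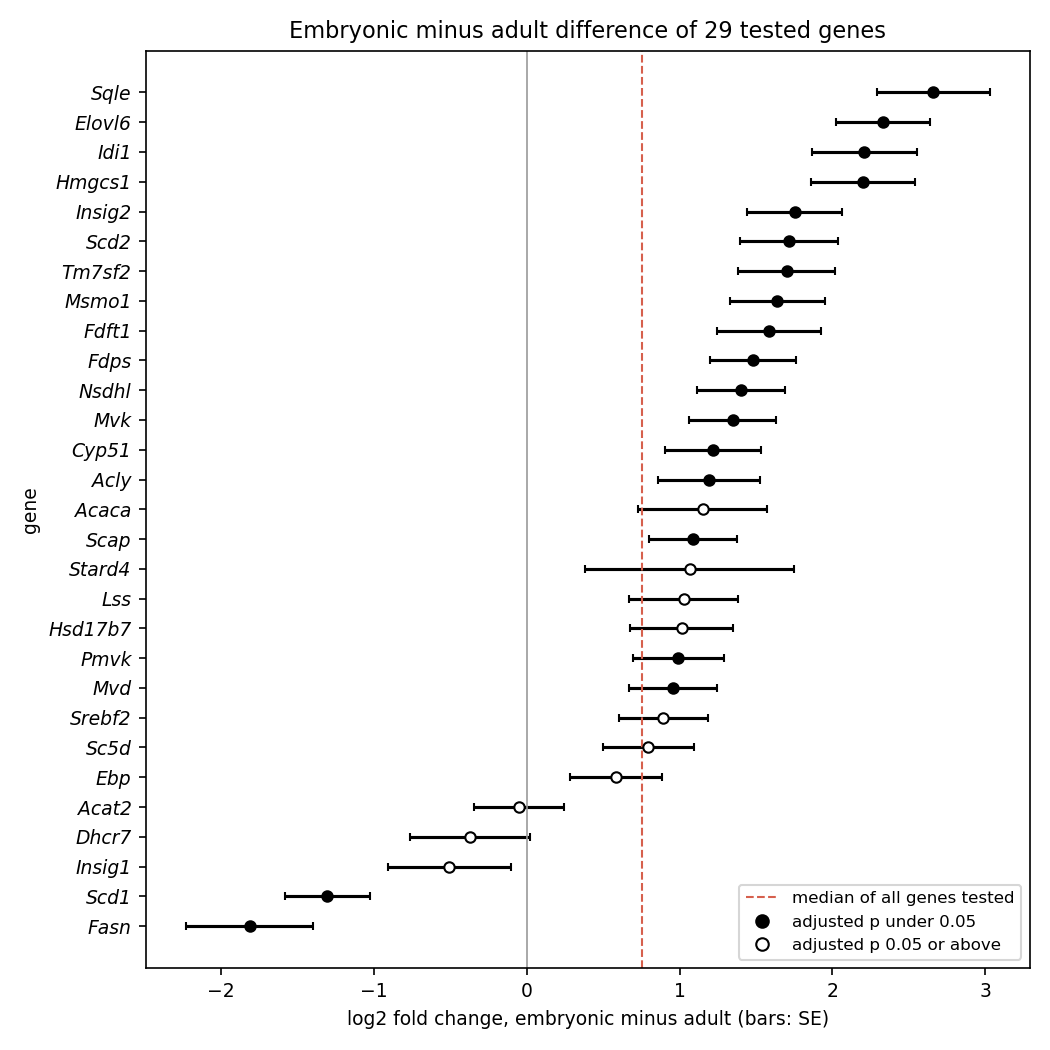
Log2 fold change, embryonic minus adult (x axis), of the 29 tested genes (y axis), with bars for the SE, filled points for an adjusted p under 0.05 and open points for the rest. Sqle at 2.66 is highest and Fasn at -1.81 lowest, and the dashed line marks the median of 0.75 over all genes tested.

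The genes that control the SREBP proteins did not move together. Insig2, one of the retention proteins, had 1.92 and 2.33 in embryonic spheres, against 0.45 and 0.29 in adult spheres, and rose by 1.75 (SE 0.31, adjusted p = 0.0140). Its second probe gave a difference of 1.48. Insig1, itself a classical SREBP target, had 0.14 and 0.62 in embryonic spheres, against 0.49 and 1.28 in adult spheres. Its groups overlapped and it did not pass the test (log2 fold change -0.51, SE 0.40, adjusted p = 0.313), and its sign turned when arrays were centred on all probes.

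Scap, the escort, had 3.08 and 3.23 in embryonic spheres, against 1.99 and 2.14 in adult spheres, and rose by 1.09 (SE 0.29, adjusted p = 0.0304), close to the median of genes measured on all 4 arrays. Srebf2, which encodes SREBP2, had -0.16 and -0.12 in embryonic spheres, against -1.15 and -0.92 in adult spheres. With a log2 fold change of 0.89 (SE 0.29) it stood at an adjusted p of 0.0505 in limma, just outside the threshold. Its other probe gave a difference of 1.40, and under 1 scaling alternative its sign turned. Srebf1, which encodes SREBP1, had -1.81 and -1.40 in embryonic spheres, against -2.79 and -1.96 in adult spheres, and was well above background on only 1 array of each group. Stard4, a cytosolic sterol carrier, had -0.47 and -0.36 in embryonic spheres, against -2.47 and -0.48 in adult spheres. The wide gap between the adult arrays left it outside the threshold (log2 fold change 1.07, SE 0.68, adjusted p = 0.226), and its second tested probe, lower in embryonic spheres, was well above background on 1 embryonic array alone.

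Fatty acid synthesis split into genes that rose and genes that fell. Elovl6, which lengthens palmitate to stearate, had 1.37 and 1.75 in embryonic spheres, against -0.83 and -0.72 in adult spheres. The groups were far apart, and Elovl6 rose by 2.33 (SE 0.31, adjusted p = 0.0104), or 5.03-fold, and after centring it was still called (adjusted p = 0.0140). Scd2, a stearoyl-CoA desaturase, had 5.28 and 5.64 in embryonic spheres, against 3.56 and 3.93 in adult spheres, and rose by 1.72 (SE 0.32, adjusted p = 0.0154). Acly, which releases cytosolic acetyl-CoA from citrate, had 4.18 and 4.35 in embryonic spheres, against 2.81 and 3.35 in adult spheres, and rose by 1.19 (SE 0.33, adjusted p = 0.0347).

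Scd1, the other main desaturase, had 0.19 and 0.17 in embryonic spheres, against 1.45 and 1.52 in adult spheres. Both pairs of arrays lay close together, and Scd1 fell by 1.30 on the log2 scale (SE 0.28, adjusted p = 0.0192). Fasn, the multi-enzyme that makes palmitate, had -1.07 and -0.69 in embryonic spheres, against 0.93 on adult array 1. The spot on adult array 2 was marked as an outlier, so the fit rests on 1 adult array (log2 fold change -1.81, SE 0.41, adjusted p = 0.0289). With that spot kept, adult array 2 stood at 1.66 and the log2 fold change was -2.18 (SE 0.39, adjusted p = 0.0109). Both calls were lost with arrays centred on all probes (Scd1 -0.077, adjusted p = 0.888, and Fasn -0.40, adjusted p = 0.549) and with no filter on dim probes (Scd1 adjusted p = 0.0694, Fasn adjusted p = 0.0898). Fasn was also no longer called with normexp (-0.94, adjusted p = 0.0808), without embryonic array 1 (-1.62, adjusted p = 0.0641) and without adult array 2 (adjusted p = 0.0826). Scd1 was no longer called without adult array 1 (adjusted p = 0.0982) or adult array 2 (adjusted p = 0.0963), and Fasn had too few values without adult array 1. The probes' sequences were not used here, and whether RNA of the related genes Scd3 and Scd4 bound the probes of Scd1 and Scd2 was not tested.

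Acaca, the acetyl-CoA carboxylase that commits carbon to fatty acids, gave opposite answers by probe. The probe used had 2.78 and 2.48 in embryonic spheres, against 1.00 and 1.97 in adult spheres (log2 fold change 1.15, SE 0.42, adjusted p = 0.0691). A second tested probe had -3.62 and -3.62 in embryonic spheres, where it was not well above background, against -1.86 and 0.06 in adult spheres. Of 8 members with more than 1 tested probe, 6 had probes that differed in the same direction, and the 2 with opposite directions were Acaca and Stard4. On the embryonic arrays 48.3% and 35.7% of spots were well above background, against 71.6% and 49.6% on the adult arrays, and whether this bears on the dim probes was not tested.

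Adipocytes are a cell type with strong fatty acid synthesis, and their markers were examined too. Adipoq, Cfd, Plin1 and Retn were well above background in adult spheres and in no embryonic sample, so they entered the test through the adult arrays alone and their direction was given by that. The other 2 tested markers, Fabp4 and Pparg, had signal on every array and did not pass the test. Of the 9 markers on the array, 2 and 2 were well above background on the embryonic arrays, against 7 and 6 on the adult arrays. Over all spots the shares ran the same way, 48.3% and 35.7% on the embryonic arrays, against 71.6% and 49.6% on the adult arrays. The summed log2 level of the 9 markers ran the other way, 5.50 and 3.97 in embryonic spheres, against 3.93 and 3.90 in adult spheres. That sum was led by Fabp4, a fatty acid binding protein gene. Fabp4 had 5.36 and 3.50 in embryonic spheres, against 3.29 and 3.25 in adult spheres, and did not pass the test (log2 fold change 1.16, SE 0.65, adjusted p = 0.175). Whether adipocytes were present, and their part in the Scd1 and Fasn results, was not tested.

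Ratios between related genes within an array do not change when an array is multiplied by a constant. Only differences of a ratio between arrays are read here, since each ratio's own level depends on its 2 probes. The log2 ratio of Scd1 to Scd2 was -5.09 and -5.47 in embryonic spheres, against -2.11 and -2.41 in adult spheres, a difference of -3.02. The log2 ratio of Insig1 to Insig2 was -1.79 and -1.71 in embryonic spheres, against 0.04 and 0.99 in adult spheres, a difference of -2.26. The groups overlapped in neither pair. For Srebf2 against Hmgcs1 the ratio was -4.22 and -4.81 in embryonic spheres, against -3.37 and -3.06 in adult spheres, a difference of -1.31. The exact two-sided permutation p was 0.333 for each of these 3 pairs, the smallest that 2 against 2 arrays can give. Ratios of Srebf1 to Srebf2 and to Fasn are not compared, since Srebf1 was too dim on 1 array of each group.

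**Figure D4:**
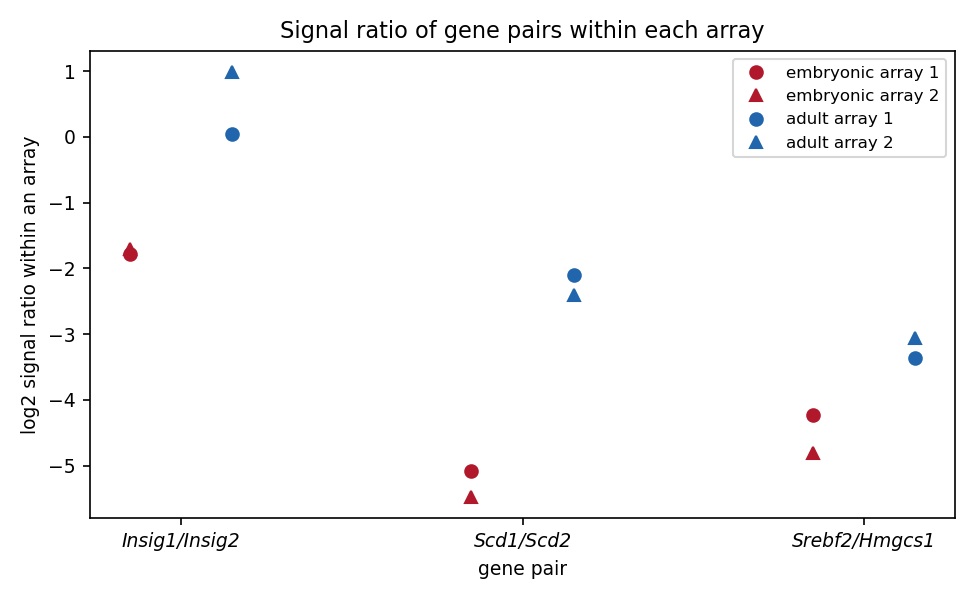
Log2 signal ratio within each array (y axis) for 3 gene pairs (x axis), red for embryonic and blue for adult arrays, circles for array 1 and triangles for array 2. The ratios of Scd1 to Scd2, Insig1 to Insig2 and Srebf2 to Hmgcs1 are lower on both embryonic arrays than on either adult array.

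Other genes of lipid metabolism were counted in 8 lists, each to be read against 34.9% of all genes higher and 17.4% lower. Most genes of each list had signal on all 4 arrays, and of all such genes 42.0% were higher and 2.41% lower. A list with none lower is therefore near that share. After centring on the tested genes far fewer were called higher: 3 of the SREBP cleavage and turnover list, 2 of oxidation, 1 each of the isoprenoid, supply and efflux lists, and none of the uptake, triglyceride and elongation lists, where 7.63% of all genes were. Called lower after it were 5 of the elongation list, 3 of the efflux list and none of the others, where 20.3% of all genes were. Of genes with signal on all 4 arrays, 460 of 9622 were lower after it. The counts below are without that centring. Of 11 genes listed under SREBP cleavage and turnover 7 rose and none fell, with a median log2 fold change of 1.44. The list also holds NF-Y subunit and AMP-activated kinase genes, and Nfya, Nfyc, Prkaa1 and Prkaa2 were among the 7. Of the 11 genes 8 had signal on all 4 arrays. Nfya had signal on no adult array, so it entered the test through the embryonic arrays alone, which fixed its direction. Genes below with signal on only 1 adult array also entered through the embryonic arrays, which favoured a rise. Prkaa2, a catalytic subunit of AMP-activated kinase, rose by 2.73 (SE 0.48) and Mbtps2, the site-2 protease that frees SREBP, by 1.99 (SE 0.41), though only 1 adult array showed either gene well above background. Of 8 genes of the isoprenoid branches 6 rose and none fell (median 1.39), led by the prenyl transferase subunits Fntb (2.09, SE 0.65, adjusted p = 0.0463, with signal on 1 adult array) and Pggt1b. Neither adult array showed Pggt1b well above background, which fixed its direction, and its embryonic level was at least 2.62-fold higher. Of 7 genes that supply acetyl-CoA and NADPH 5 rose and none fell (median 1.02). Acss2, which makes acetyl-CoA from acetate, rose by 2.88 (SE 0.43, adjusted p = 0.0112) with signal on 1 adult array, and malic enzyme, Me1, rose by 1.77 (SE 0.34, adjusted p = 0.0161).

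Fatty acid oxidation, storage and uptake were counted next. Of 9 fatty acid oxidation genes 8 rose and none fell (median 1.31), among them Hadha, of the trifunctional protein, by 2.00 (SE 0.32, adjusted p = 0.0123) and Cpt1a, which brings fatty acids into mitochondria, by 1.91 (SE 0.28, adjusted p = 0.0113). Of 6 genes of triglyceride synthesis and storage 5 rose and none fell (median 1.28), led by the acyltransferase gene Dgat2 (1.84, SE 0.44, adjusted p = 0.0238) and the phosphatidate phosphatase gene Lpin1 (1.61, SE 0.31, adjusted p = 0.0163), the second with signal on 1 adult array. Of 5 uptake genes 2 rose and none fell (median 1.52), namely the lipoprotein receptor genes Vldlr (1.74, SE 0.36, adjusted p = 0.0182) and Scarb1 (1.52, SE 0.37, adjusted p = 0.0251).

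The lists with genes on both sides were those of elongation and desaturation and of sterol efflux and storage. Of 16 tested elongation and desaturation genes 6 rose and 4 fell, but Acacb, Elovl2 and the desaturase gene Scd4 were tested through the adult arrays alone, which fixed their direction, and Fads2, a fatty acid desaturase gene, had signal on 1 embryonic array. The elongase gene Elovl7 rose by 1.55 (SE 0.45, adjusted p = 0.0375) and the dehydratase gene Hacd3 by 1.43 (SE 0.29, adjusted p = 0.0176). Acacb, the mitochondrial counterpart of Acaca, and the elongase gene Elovl2 were at least 5.93-fold (adjusted p = 0.00994) and at least 1.98-fold (adjusted p = 0.0200) higher in adult spheres. Of 13 efflux, storage and export genes 4 rose and 2 fell (median 0.77). Mylip, a ubiquitin ligase induced by sterol-sensing LXR receptors, rose by 2.08 (SE 0.29, adjusted p = 0.0108) and the cholesteryl ester hydrolase gene Nceh1 by 1.69 (SE 0.34, adjusted p = 0.0169). Ch25h, which makes the oxysterol 25-hydroxycholesterol, fell by 1.56 (SE 0.32, adjusted p = 0.0177), and Osbp, an oxysterol-binding protein gene with signal on 1 embryonic array, fell by 1.90 (SE 0.36, adjusted p = 0.0154).

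Across the alternatives of processing the members' median stayed above that of all genes tested. The gap between both medians was 0.40 as reported, 0.22 at the least without embryonic array 2 and 0.82 at the most with no filter on dim probes. The members' own median moved between 0.26 and 2.38 with the scaling.

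**Figure D5:**
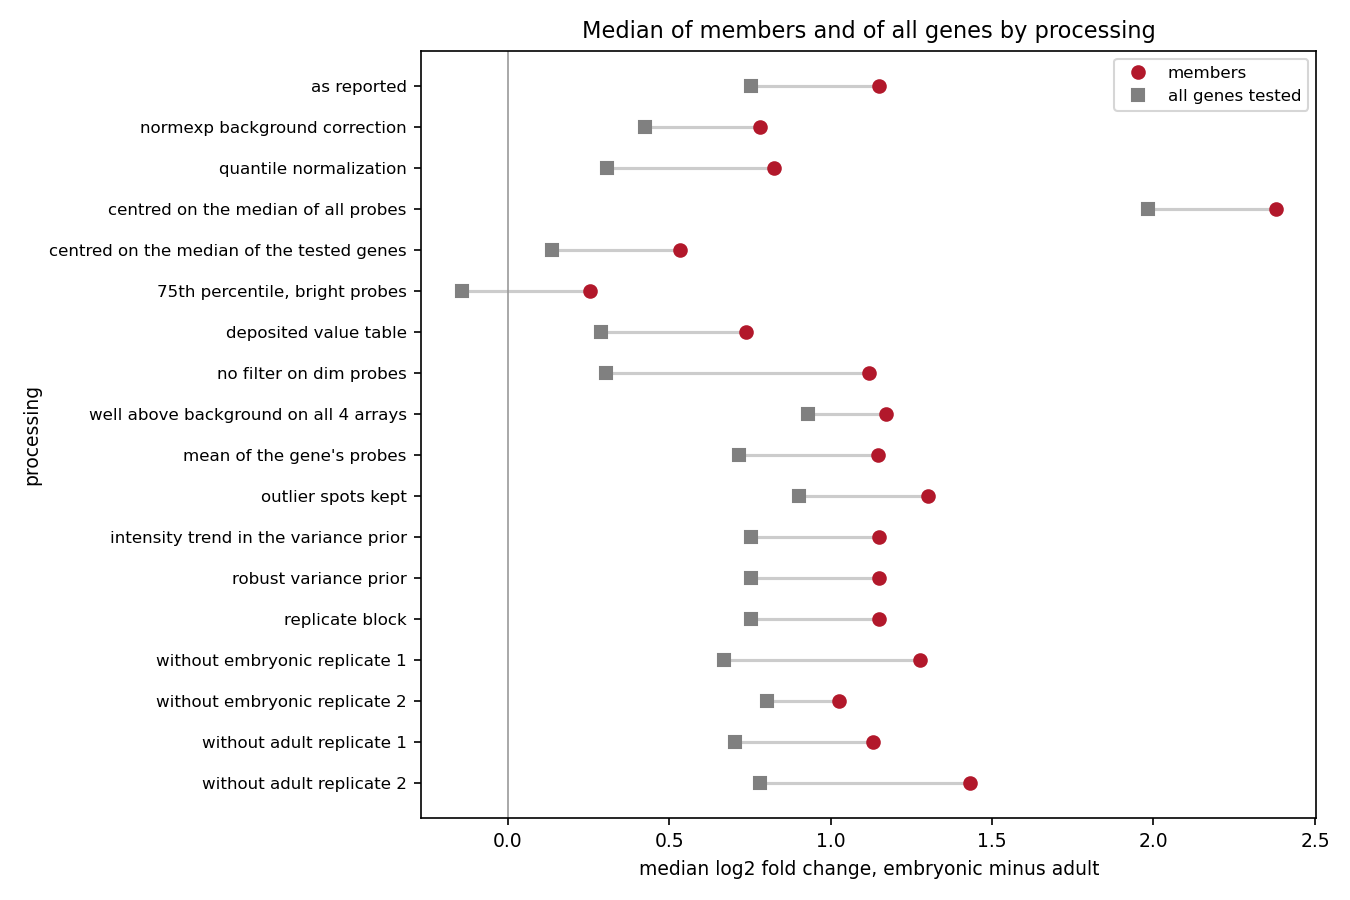
Median log2 fold change, embryonic minus adult (x axis), of the members (red circles) and of all genes tested (grey squares) under each processing (y axis). The members' median lies to the right of the other in every case shown, and both shift together with the scaling.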

How the data were processed

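RNA of 4 thymosphere samples, 2 embryonic and 2 adult by their titles, was measured on 1-colour Agilent arrays, from 25 ng of total RNA labelled with Cy3 per the labels' protocols. Per the file headers, the deposited intensity values came from Agilent Feature Extraction 10.7.3.1, with background subtraction and spatial detrending inside each array and no scaling from one array to another. The deposited value table, an alternative only, is in linear intensity and its 4 columns share 1 maximum. Its column medians were 35.7 and 35.1 for embryonic and 34.4 and 35.0 for adult arrays, its log2 values correlated with the array's own median spot signal at 0.994 to 0.998, and its processing and centring are not given in the sources used here.

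From the scanner files, log2 processed signals were used after subtracting the log2 of each array's own 75th percentile (126 and 61.5 on embryonic arrays, 132 and 66.0 on adult arrays). Control spots and outlier spots (120 and 95 on embryonic, 185 and 2756 on adult arrays) were left out, no spot was saturated, and spots of a probe were averaged. A probe was named through its RefSeq accession (28026 of 55681 probes, 50.3%, annotation GRCm38.p6, used for names) and tested if well above background on both arrays of a group. The probe of highest mean signal stood for its gene, probes well above background on all 4 arrays first. Limma 3.58.1 in R 4.3.3 fitted embryonic minus adult over 13660 genes without covariates, with Benjamini-Hochberg adjustment and a threshold of 0.05, and the fit was tested on simulated data. For an "at least" fold, each dim array's signal was raised to that array's lowest well-measured signal where it lay under it, and the mean of the other group was set over their mean.

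The members, lists and tests were chosen with earlier results of these data known. Every member is named. Of each other lipid list up to 2 called genes per direction with the greatest change are named, and markers by count. The normexp alternative used median spot signals, since no mean was at hand. Of the marker lists not described in the results, limma called 2 of 9 fibroblast genes higher and 1 lower, and 1 of 7 macrophage genes higher. It called lower 1 of 4 T lineage, 1 of 1 B lineage and 3 of 5 endothelial genes. Of 4 smooth muscle genes it called 1 higher and 3 lower, and the 1 erythroid gene tested in neither direction (unadjusted p above 0.05). Over all genes tested 34.9% were higher and 17.4% lower. Ptcra, Cd79b, Cdh5, Esam, Cnn1 and Des, all called lower, had signal on no embryonic array, which fixed their direction. Emcn, also called lower, had signal on 1 embryonic array.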

Additional observations from a re-analysis of the deposited data

How the results depend on the processing

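The counts moved most without an adult array and, after that, with the scaling and the filter. As reported, 17 members were called higher and 2 lower, and the members' median difference was 1.15 in log2. Members called higher numbered 11 with quantile normalization, 4 with arrays centred on the median of the tested genes, 2 with the 75th percentile taken over probes bright on all 4 arrays, and 4 with no filter on dim probes. They numbered 25 centred on all probes, 22 with signal asked on all 4 arrays, 21 with outlier spots kept or an intensity trend, 19 with the mean of a gene's probes, 17 with a robust prior, and 12 with normexp or the deposited table. Members called lower numbered 1 with normexp and 1 when signal was asked on all 4 arrays, and 0 in limma with arrays centred on all probes (0 at an unadjusted p under 0.05) and with no filter (2 at an unadjusted p under 0.05). Leaving out 1 array gave 0 to 14 higher and 0 to 2 lower, the 0 both without adult array 1 and without adult array 2 (13 and 17 higher, 1 and 2 lower, at an unadjusted p under 0.05), 14 and 1 without embryonic array 1 and 12 and 2 without embryonic array 2, and medians from 1.03 to 1.43. The median was 0.78 with normexp, 0.83 with quantile normalization, 2.38 centred on all probes, 0.53 centred on the tested genes, 0.26 with the percentile over bright probes, 0.74 in the deposited table and 1.30 with outlier spots kept. Over all genes, calls higher and lower numbered 4764 and 2373 as reported, 1042 and 2771 centred on the tested genes, 9833 and 1688 centred on all probes, 474 and 3088 with the percentile over bright probes, 896 and 1789 with no filter, 4992 and 316 with signal on all 4 arrays, 5758 and 2363 with outlier spots kept, and 5861 and 2346 with the trend. The cause of these shifts was not tested.

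Sign changes touched 14 values, all of members not called as reported. Ebp stood at -0.23 with quantile normalization, -0.032 centred on the tested genes, -0.31 with the percentile over bright probes and -0.14 in the deposited table. With that percentile Sc5d stood at -0.10 and Srebf2 at -0.0016. Centred on all probes, Acat2 stood at 1.18 (adjusted p = 0.0345), Dhcr7 at 0.86 and Insig1 at 0.72. With the mean of a gene's probes Stard4 stood at -0.73 and Acaca at -0.79. Acat2 stood at 0.10 with outlier spots kept and, over the fits without 1 array, between -0.20 (without embryonic array 2) and 0.0898 (without embryonic array 1), and Dhcr7 between -0.79 (without adult array 1) and 0.0535 (without adult array 2).

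With the replicate number as a block, 15 members were higher and 2 lower, with a median of 1.15. Deviations of same-numbered arrays correlated at 0.07, and the labels do not say that a number marks a shared batch, so this block was no main result. With 4 arrays and signals of 48.3% and 35.7% of spots over background on embryonic arrays, against 71.6% and 49.6% on adult arrays, Srebf1 was too dim to be compared.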
